A study of Mus musculus with 8 samples.

Results

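The genes described here encode the TGF-beta ligands (Tgfb1, Tgfb2, Tgfb3), the latent-complex protein that stores them (Ltbp1), their receptors (Tgfbr1, Tgfbr2), the signal carrier Smad3, and the direct targets Smad7 and Tgfbi. They were chosen by symbol, and all 9 were found once each among the 42256 gene identifiers of the count table. All 9 also passed the filter on low counts, as did 15852 genes in all. RNA came from whole kidneys of 8 adult males bred on 129S1/Sv x C57BL/6, a mixed strain. Every mouse had received aristolochic acid, a plant toxin that damages the proximal tubule, at 3 mg/kg on 5 consecutive days, and was killed 2 weeks after the last dose. Of the 8 mice, 4 were labelled CDH11-/- and 4 CDH11+/+. Cdh11 encodes cadherin-11, an adhesion protein of mesenchymal cells. A different injury (Unx/AngII) stands in the title of the series, but sample labels were used here. No uninjured kidney was analysed here, so the values have no uninjured background.

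TGF-beta is secreted in a latent form, folded into its own propeptide and tethered to the matrix by latent TGF-beta binding proteins. Once freed, often by integrins pulling on the propeptide, it binds TGFBR2, which recruits and activates TGFBR1. That kinase phosphorylates SMAD2 and SMAD3, which join SMAD4 in the nucleus and switch on targets. SMAD7 is induced by the pathway and shuts the receptor off again, and TGFBI is a secreted matrix protein named for its induction by TGF-beta. In the injured kidney the pathway is best known for driving myofibroblasts and scarring.

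Libraries held 10675309 to 18539479 counts. The targeted gene was not lower under the CDH11-/- label. Cdh11 was at 89.9, 91.3, 112.5 and 117.2 CPM (counts in proportion to library size, scaled with TMM) in replicates 1 to 4 labelled CDH11-/-, against 75.6, 58.0, 61.7 and 59.0 CPM in those labelled CDH11+/+. On this scale every library labelled CDH11-/- was above every library labelled CDH11+/+ (log2 fold change 0.69, adjusted p = 0.0243 in edgeR). In the authors' normalized values Cdh11 overlapped, at 1084 to 1372 in the libraries labelled CDH11-/-, against 812.1 to 1367 in those labelled CDH11+/+ (0.26 on the log2 scale, limma adjusted p = 0.518). Genotypes are given below as labelled. The labels do not say which part of Cdh11 was deleted, and counts per exon were not analysed here. CDH11+/+ replicate 1 stood apart on the second principal component (22.6% of variance), at 41.0 where the other libraries lay between −26.1 and 9.92. On the first component (33.4% of variance) it was at −2.54, and CDH11+/+ replicate 2 lay farthest out, at −39.6. Calls that CDH11+/+ replicate 1 decides are given with and without it. In whole tissue, fewer cells of a type and less RNA per cell cannot be told apart.

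None of the 9 TGF-beta genes passed the test between the labelled genotypes. In the edgeR quasi-likelihood test with Benjamini-Hochberg adjustment over all 15852 genes, 0 of 9 had an adjusted p under 0.05, where 0.719% of all genes did. Ltbp1 and Smad7 had an unadjusted p under 0.05, as did 14.1% of all genes. In DESeq2 0 of 9 passed, where it called 3.04% of all genes. In limma-voom with quality weights 1 of 9 passed, Ltbp1, where that fit called 4.32% of all genes. With 1 surrogate variable in edgeR 3 of 9 passed (Ltbp1, Tgfb2 and Tgfbi, all higher), where 10.2% of all genes did. The log2 fold changes (labelled CDH11-/- over CDH11+/+) ran from −0.02 to 0.50 with a median of 0.19, beside a median of −0.008 over all tested genes. Positive values were found for 8 of the 9, beside 47.8% of all tested genes.

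**Figure D1:**
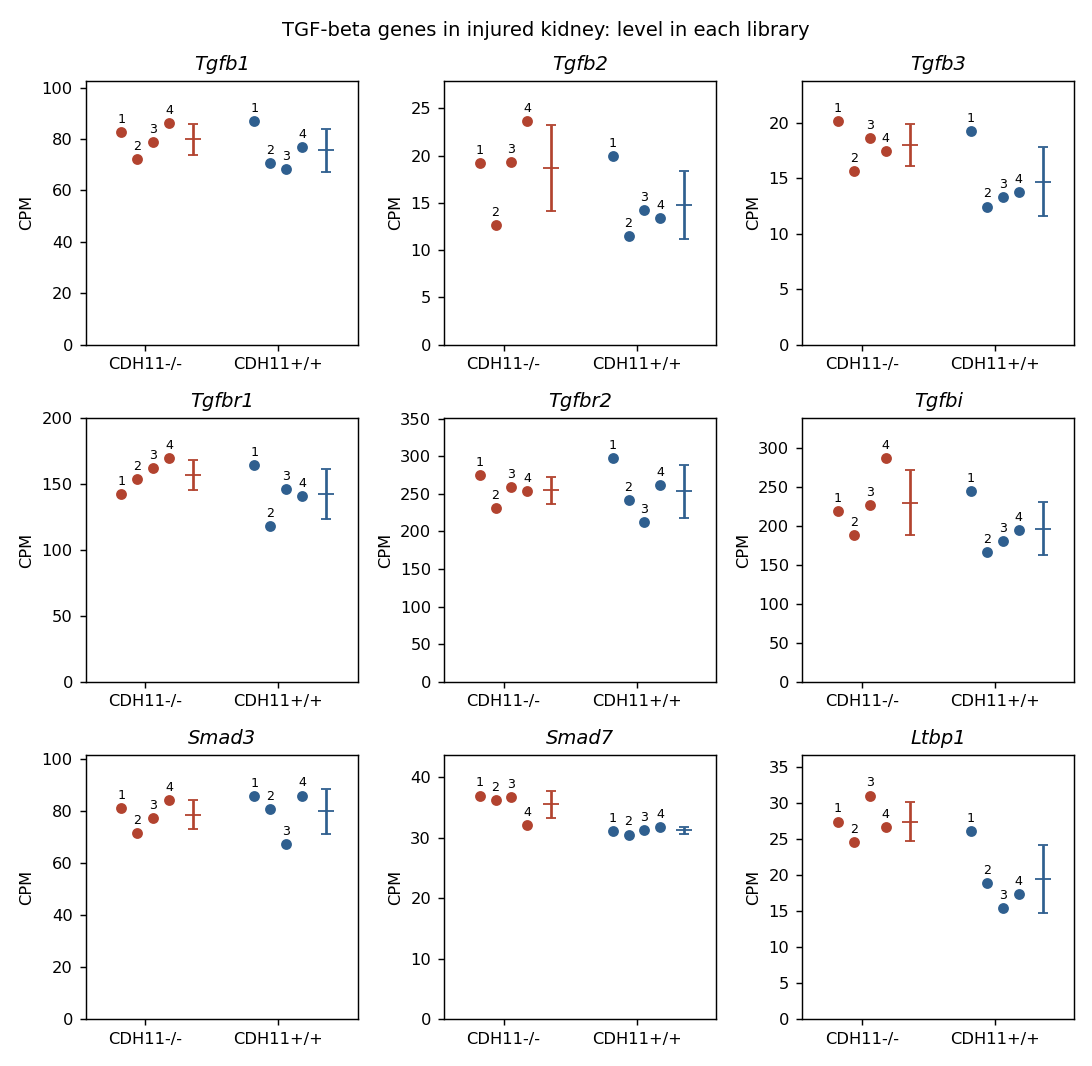
Level of each of the 9 genes in CPM (y axis, from 0) in the 4 libraries labelled CDH11-/- (red) and the 4 labelled CDH11+/+ (blue). Points carry replicate numbers, and the bar beside them is the mean with SD. Smad7 is the gene whose groups do not overlap, and CDH11+/+ replicate 1 is the highest of its group in 7 of the 9 panels.

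Among the ligands, Tgfb1, the form most studied in kidney fibrosis, lies on chromosome 7 from 25687002 to 25705077 of GRCm38 (plus strand). Its level was 82.7, 72.1, 78.8 and 86.3 CPM in replicates 1 to 4 labelled CDH11-/-, against 86.9, 70.7, 68.2 and 76.9 CPM in those labelled CDH11+/+. The range of the libraries labelled CDH11-/- lay inside that of the others, and the highest library of all 8 was CDH11+/+ replicate 1. The log2 fold change was 0.08 ± 0.08 (SE, adjusted p = 0.725 in edgeR), and 0.03 to 0.16 with each library left out in turn. The 95% interval of the fold ran from 0.930 to 1.20.

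Tgfb2 (chromosome 1, 186622792 to 186705989, minus strand) had the widest span among the 9. It was at 19.2, 12.7, 19.3 and 23.6 CPM in the libraries labelled CDH11-/-, against 19.9, 11.5, 14.2 and 13.4 CPM in those labelled CDH11+/+. Replicate 2 labelled CDH11-/- lay below most libraries of the other label, and CDH11+/+ replicate 1 lay among the high ones. The log2 fold change was 0.34 ± 0.21 (SE, adjusted p = 0.5 in edgeR). It was 0.53 without CDH11+/+ replicate 1 (adjusted p = 0.129 in edgeR) and 0.23 without CDH11-/- replicate 4 (adjusted p = 0.764 in edgeR). From the lowest library to the highest, Tgfb2 spanned 1.03 in log2 CPM, beside 0.35 for Tgfb1. Counting alone gives an error of 8.14% for the library with the fewest Tgfb2 counts.

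For Tgfb3 (chromosome 12, 86056745 to 86079041, minus strand) the levels were 20.1, 15.6, 18.6 and 17.5 CPM in the libraries labelled CDH11-/-, against 19.3, 12.5, 13.3 and 13.8 CPM in those labelled CDH11+/+. All libraries labelled CDH11-/- lay above CDH11+/+ replicates 2 to 4, and 3 of them below replicate 1. With all 8 libraries the log2 fold change was 0.29 ± 0.14 (SE, adjusted p = 0.374 in edgeR). Without CDH11+/+ replicate 1 it was 0.46 ± 0.11 (SE, adjusted p = 0.0358 in edgeR), a fit that called 3.08% of all genes as higher, and without CDH11+/+ replicate 2 it was 0.22 (adjusted p = 0.707 in edgeR). The annotation places the gene models Gm37804 and Gm48008 on the opposite strand across 163 and 257 exon bases of Tgfb3. Gm37804 was at 0 counts in all libraries, and Gm48008 was not analysed here. Ttll5, also on the opposite strand, overlaps Tgfb3 with 0 exon bases shared and had 130 to 232 counts in a library. Whether counting took strand into account is not stated in the labels.

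The make-up of the ligand pool was compared as shares, which do not depend on library scaling. The size of a share does depend on the length used for each gene. That was the merged length of all annotated exons (5042 bases for Tgfb1, 5791 for Tgfb2 and 3383 for Tgfb3), which can exceed that of the transcripts present. Per kilobase of exon, Tgfb1 made up 63.9%, 67.7%, 63.9% and 64.9% of the summed ligand level in the libraries labelled CDH11-/-, against 65.3%, 71.2%, 67.9% and 70.5% in those labelled CDH11+/+. Its mean share was 65.1% ± 1.83 in libraries labelled CDH11-/-, against 68.7% ± 2.66 in those labelled CDH11+/+ (SD, n = 4 each), a difference of −3.64 percentage points. The 2-sided exact permutation test gave p = 0.0571, or 0.129 with adjustment over the 3 shares. Tgfb3 took 21.8% ± 1.55 in libraries labelled CDH11-/-, against 19.7% ± 1.33 in those labelled CDH11+/+ (exact permutation p = 0.0857, adjusted 0.129). Tgfb2 took 13.1% ± 2.12 in libraries labelled CDH11-/-, against 11.5% ± 1.39 in those labelled CDH11+/+ (exact permutation p = 0.229, adjusted 0.229). None of the 3 differences passed the test. The smallest p that 4 against 4 libraries can give is 0.0286.

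**Figure D2:**
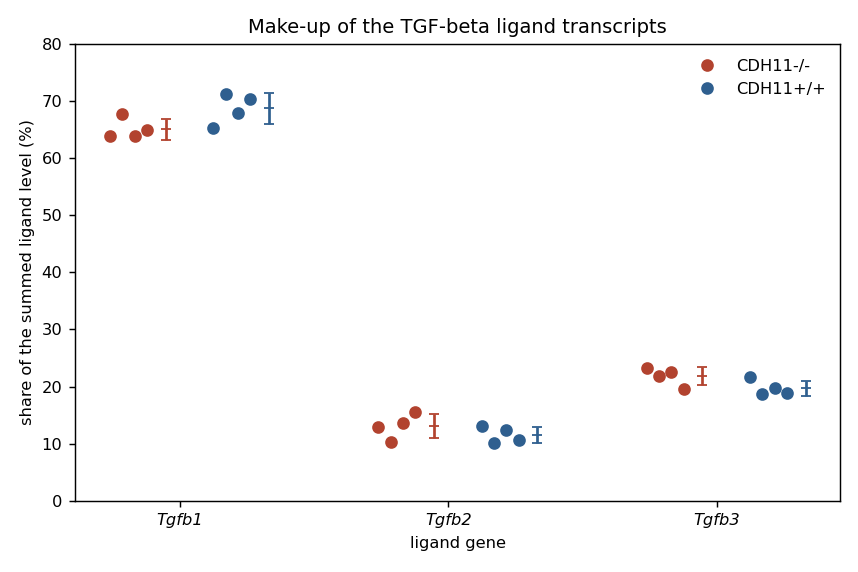
Share of each ligand gene in the summed level of Tgfb1, Tgfb2 and Tgfb3 (y axis, percent, counts per kilobase of exon) for the 4 libraries labelled CDH11-/- (red) and the 4 labelled CDH11+/+ (blue), with mean and SD. On the merged exon lengths used, Tgfb1 supplies most of the pool under both labels, and the groups overlap for all 3 ligands.

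Ltbp1, which encodes the latent TGF-beta binding protein that anchors the ligand complex in the matrix, had the largest difference of the 9 genes (chromosome 17, 75005568 to 75392512, plus strand). It was at 27.5, 24.6, 31.1 and 26.7 CPM in the libraries labelled CDH11-/-, against 26.2, 18.9, 15.4 and 17.4 CPM in those labelled CDH11+/+. CDH11+/+ replicate 1 fell inside the range of the libraries labelled CDH11-/-, and replicates 2 to 4 lay below all of them. Means were 27.4 ± 2.72 CPM in libraries labelled CDH11-/-, against 19.5 ± 4.70 CPM in those labelled CDH11+/+ (SD, n = 4 each). The log2 fold change was 0.50 ± 0.15 (SE, adjusted p = 0.173 in edgeR, 95% interval 0.17 to 0.83). Without CDH11+/+ replicate 1 it was 0.68 ± 0.11 (SE, adjusted p = 0.0059 in edgeR). The authors' normalized values for Ltbp1 averaged 377.5 ± 34.1 in libraries labelled CDH11-/-, against 274.3 ± 81.6 in those labelled CDH11+/+ (SD, n = 4 each), where limma gave an adjusted p = 0.279.

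Promoters are shown for the gene of largest difference and for the pair of ligands that varied most and least. Ltbp1 has a pair of RefSeq start sites, known for its long and short forms, and counts per gene do not tell these apart. Each sequence is the 250 bases before a RefSeq start on GRCm38.p6, written 5′ to 3′ on the gene's strand. Capitals mark every match, on both strands, to the SMAD element CAGAC, the SMAD palindrome GTCTAGAC, the AP-1 site TGANTCA, the GC box GGGCGG and the TATA box TATAAA. The SMAD element is not a part of the palindrome. The windows lie at chr17:75005279-75005528 (plus), chr17:75178531-75178780 (plus), chr7:25686752-25687001 (plus) and chr1:186705990-186706239 (minus).
Ltbp1, upstream start: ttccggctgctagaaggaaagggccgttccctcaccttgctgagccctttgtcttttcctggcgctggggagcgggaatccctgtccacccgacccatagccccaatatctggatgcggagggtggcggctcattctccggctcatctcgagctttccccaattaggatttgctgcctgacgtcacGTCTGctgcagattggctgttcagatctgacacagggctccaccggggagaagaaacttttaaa
Ltbp1, downstream start: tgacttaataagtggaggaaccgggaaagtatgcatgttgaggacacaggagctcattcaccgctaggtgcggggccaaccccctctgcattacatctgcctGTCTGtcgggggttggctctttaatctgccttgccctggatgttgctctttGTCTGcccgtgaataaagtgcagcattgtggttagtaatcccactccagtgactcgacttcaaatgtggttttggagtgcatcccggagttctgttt
Tgfb1: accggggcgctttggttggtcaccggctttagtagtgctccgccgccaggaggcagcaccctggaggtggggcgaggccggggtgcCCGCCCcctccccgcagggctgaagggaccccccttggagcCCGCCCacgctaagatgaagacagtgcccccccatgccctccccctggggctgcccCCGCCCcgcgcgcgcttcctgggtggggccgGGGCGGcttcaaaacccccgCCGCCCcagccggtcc
Tgfb2: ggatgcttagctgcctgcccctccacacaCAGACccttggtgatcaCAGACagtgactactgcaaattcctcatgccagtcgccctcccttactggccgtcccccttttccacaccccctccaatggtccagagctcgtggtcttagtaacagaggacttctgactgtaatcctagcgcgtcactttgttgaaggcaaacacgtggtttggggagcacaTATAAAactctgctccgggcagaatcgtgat

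The upstream Ltbp1 start held 1 CAGAC match, 64 bases before the start, and the downstream one held 2, at 148 and 97 bases. Tgfb1 had 0 CAGAC matches, 5 GC boxes and a GC content of 75.2%, whereas Tgfb2 had 2 CAGAC matches, a TATA box 31 bases before its start and a GC content of 53.6%. Of 32851 mouse promoters cut to the same window, 42.2% held CAGAC, 32.7% the GC box, 12.4% the TATA box, 6.75% the AP-1 site and 0.167% the palindrome. No match to the AP-1 site or to the palindrome lay in the 9 windows of the 7 genes examined. Tgfb3 had no entry, and the promoter of Smad7 was not analysed here, so this absence does not extend to either gene. These matches describe letters, and binding was not measured.

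Neither receptor gene passed the test. Tgfbr2, the ligand-binding kinase (chromosome 9, 116084293 to 116175360, minus strand), was at 274.5, 231.0, 258.6 and 253.7 CPM in the libraries labelled CDH11-/-, against 297.0, 241.4, 212.4 and 261.4 CPM in those labelled CDH11+/+. The range of the libraries labelled CDH11-/- lay wholly inside that of the others. Its log2 fold change was 0.01 ± 0.10 (SE, adjusted p = 0.982 in edgeR), with a sign that flipped in 3 of 18 alternatives, and the 95% interval of the fold ran from 0.868 to 1.17. Tgfbr1, the signalling kinase also called ALK5 (chromosome 4, 47353222 to 47414931, plus strand), was at 142.8, 154.0, 162.1 and 169.7 CPM in the libraries labelled CDH11-/-, against 164.8, 118.1, 146.7 and 141.4 CPM in those labelled CDH11+/+. The groups overlapped, with CDH11+/+ replicate 2 as the lowest of the 8. The log2 fold change was 0.14 ± 0.10 (SE, adjusted p = 0.553 in edgeR), or 0.23 ± 0.09 without CDH11+/+ replicate 1 (SE, adjusted p = 0.14 in edgeR). Without CDH11+/+ replicate 2 it was 0.06 (adjusted p = 0.891 in edgeR).

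Smad3, the transcription factor that carries the signal (chromosome 9, 63646767 to 63757994, minus strand), was at 81.2, 71.5, 77.3 and 84.4 CPM in the libraries labelled CDH11-/-, against 85.6, 80.6, 67.3 and 86.0 CPM in those labelled CDH11+/+. It was the one gene of the 9 with a negative value, −0.02 ± 0.08 on the log2 scale (SE, adjusted p = 0.93 in edgeR). The sign flipped in 5 of 18 alternatives, among them library size alone as the scale, and the range of the libraries labelled CDH11-/- lay inside that of the others. The 95% interval of the fold was 0.865 to 1.12.

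Smad7, the inhibitory feedback target (chromosome 18, 75367529 to 75395935, plus strand), was the one gene of the 9 whose libraries did not overlap between labels. Its level was 37.0, 36.2, 36.7 and 32.2 CPM in the libraries labelled CDH11-/-, against 31.2, 30.5, 31.3 and 31.8 CPM in those labelled CDH11+/+. The gap between the groups was narrow, with CDH11-/- replicate 4 just above CDH11+/+ replicate 4. Over all tested genes, 3.59% did not overlap in this direction. The log2 fold change was 0.19 ± 0.07 (SE, adjusted p = 0.249 in edgeR). The libraries labelled CDH11+/+ differed by a coefficient of variation of 1.63%, less than the 5.44% that counting error alone gives for the smallest Smad7 count. In the authors' normalized values Smad7 was at 498.1, 493.3, 505.4 and 501.2 in the libraries labelled CDH11-/-, against 431.8, 411.1, 428.4 and 427.6 in those labelled CDH11+/+. The gap was wider on that scale, with a log2 fold change of 0.23 (limma adjusted p = 0.191).

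Tgfbi, the secreted matrix target (chromosome 13, 56609523 to 56639562, plus strand), was at 218.3, 187.7, 226.5 and 286.3 CPM in the libraries labelled CDH11-/-, against 244.6, 165.8, 180.1 and 194.9 CPM in those labelled CDH11+/+. CDH11-/- replicate 4 was the highest library and CDH11+/+ replicate 1 the next. The log2 fold change of Tgfbi was 0.23 ± 0.15 (SE, adjusted p = 0.544 in edgeR), and 0.36 ± 0.13 without CDH11+/+ replicate 1 (SE, adjusted p = 0.152 in edgeR). Without CDH11-/- replicate 4 it was 0.11 (adjusted p = 0.822 in edgeR). Of the libraries labelled CDH11-/-, replicate 4 was the highest for Tgfbi and the lowest for Smad7.

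**Figure D3:**
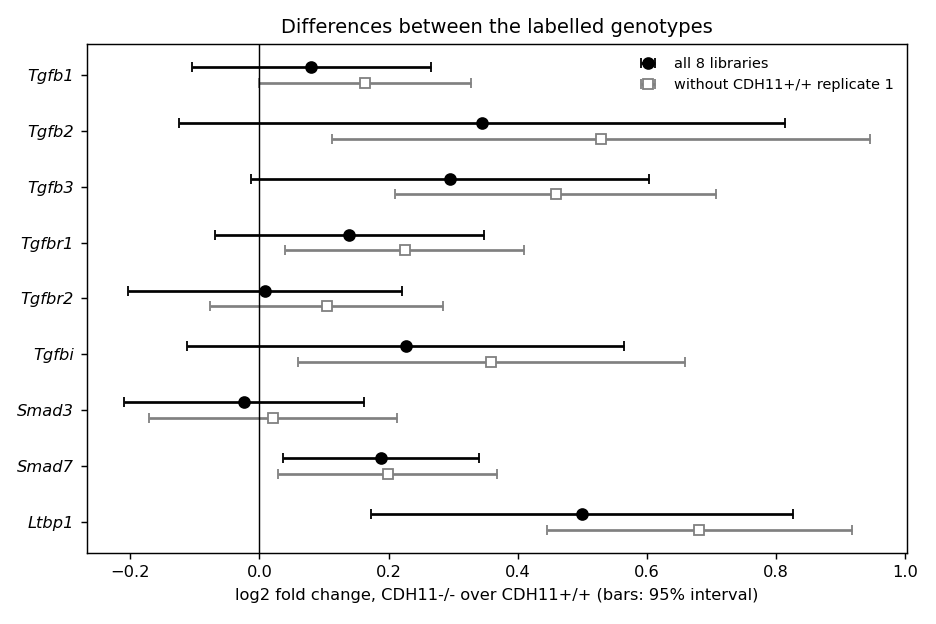
Log2 fold change of each gene (x axis, labelled CDH11-/- over CDH11+/+) with its 95% interval from edgeR, for all 8 libraries (black) and without CDH11+/+ replicate 1 (grey). With all 8, the intervals of Ltbp1 and Smad7 lie above 0, and Tgfbr2 and Smad3 sit at 0.01 and −0.02. Intervals are not adjusted for the number of genes, and with all 8 libraries neither Ltbp1 nor Smad7 passed the adjusted edgeR test.

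Between genes, levels were compared per kilobase of exon (CPM divided by merged exon length). Merged length takes in every annotated exon, at 5042 bases for Tgfb1 and 10691 for Ltbp1, and can exceed that of the transcripts present. Transcript lengths were not analysed here, so the order below holds for merged lengths alone. Tgfbi was the most abundant, at 60.9 ± 10.9 CPM per kb in the libraries labelled CDH11-/-, against 52.1 ± 9.10 CPM per kb in those labelled CDH11+/+ (SD, n = 4 each), above every other gene of the 9 in all 8 libraries. Tgfbr2 came next, at 31.1 ± 2.20 CPM per kb in libraries labelled CDH11-/-, against 30.9 ± 4.34 CPM per kb in those labelled CDH11+/+. Tgfbr1 was below Tgfbr2 in 8 of 8 libraries, at 24.1 ± 1.76 CPM per kb in libraries labelled CDH11-/-, against 21.9 ± 2.95 CPM per kb in those labelled CDH11+/+, with ranges that overlapped. Tgfb1 was at 15.9 ± 1.20 CPM per kb in libraries labelled CDH11-/-, against 15.01 ± 1.66 CPM per kb in those labelled CDH11+/+. It was above Smad3 in 6 of 8 libraries, so this pair did not differ beyond its spread. Smad7 followed at 7.86 ± 0.498 CPM per kb in libraries labelled CDH11-/-, against 6.90 ± 0.112 CPM per kb in those labelled CDH11+/+. Tgfb3 was at 5.32 ± 0.561 CPM per kb in libraries labelled CDH11-/-, against 4.35 ± 0.916 CPM per kb in those labelled CDH11+/+, above Tgfb2 in 8 of 8. At the low end, Tgfb2 was above Ltbp1 in 7 of 8 libraries, with ranges that overlapped. Ltbp1 was at 2.57 ± 0.254 CPM per kb in libraries labelled CDH11-/-, against 1.82 ± 0.439 CPM per kb in those labelled CDH11+/+.

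The 9 genes varied over the libraries in ways that the labels did not fully divide. CDH11+/+ replicate 1 was the highest of its group in 7 of the 9, beside 32.4% of all tested genes. CDH11-/- replicate 2 was the lowest of its group in 7 of the 9, beside 24.3% of all tested genes. By root mean square difference in centred log2 CPM over 8 libraries, Tgfb1 and Tgfbr2 were the closest of the 36 pairs, at 0.07. Tgfb2 and Smad7 were the most distant, at 0.34. This measure is also small where both genes vary little, so it does not rank likeness of pattern alone. About their own means, Tgfb1 and Tgfbr2 varied by a root mean square of 0.12 and 0.14, beside 0.24 for Tgfbi. Among 12037 other genes at 5 CPM or more, those nearest to Tgfb1 were Gnai2 (0.03 log2), Rgs2 (0.03) and Unc93b1 (0.03). Nearest to Tgfbr2 were Bak1 (0.05), Rcc2 (0.05) and Bin1 (0.05), and nearest to Tgfbi were Spsb1 (0.06), Pip4k2a (0.06) and Tnfsf13b (0.06).

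Markers of other cell types also varied over these libraries. The 10 proximal tubule markers all had negative log2 fold changes (0 past the test), with a summed level of 1615 to 2819 CPM in the libraries labelled CDH11-/-, against 2229 to 4804 CPM in those labelled CDH11+/+. CDH11+/+ replicate 1 had the 2229 CPM and the rest of its label 3527 CPM or more. Of 8 fibroblast and pericyte markers, 7 had positive values (0 past the test), and their sum was 1196 to 1684 CPM in the libraries labelled CDH11-/-, against 1072 to 1519 CPM in those labelled CDH11+/+. CDH11+/+ replicate 1 had the 1519 CPM and the rest of its label at most 1161 CPM. The 8 macrophage markers all had positive values (median log2 fold change 0.13). They summed to 1907 to 2417 CPM in the libraries labelled CDH11-/-, against 1636 to 2460 CPM in those labelled CDH11+/+, where 2460 CPM was again replicate 1. The 8 endothelial markers all had positive values (median log2 fold change 0.32). Their sums did not overlap, at 469.7 to 524.4 CPM in libraries labelled CDH11-/-, against 342.0 to 463.2 CPM in those labelled CDH11+/+. The mean centred log2 CPM of this list did not overlap either, at 0.07 in CDH11-/- replicate 4 and 0.05 in CDH11+/+ replicate 1. The 7 tested lymphocyte markers all had positive values (median log2 fold change 0.21, 0 past the test). That list summed, without overlap, to 286.2 to 335.5 CPM in libraries labelled CDH11-/-, against 82.7 to 197.9 CPM in those labelled CDH11+/+. Its mean centred log2 CPM overlapped between labels, at 0.05 in CDH11-/- replicate 3 and 0.18 in CDH11+/+ replicate 3. The 6 podocyte markers all had positive values (median log2 fold change 0.29), and summed to 495.5 to 613.0 CPM in libraries labelled CDH11-/-, against 357.8 to 511.2 CPM in those labelled CDH11+/+. Of 6 markers of injured tubule 4 had negative values and 2 positive. Their sums did not overlap, at 926 to 1143 CPM in libraries labelled CDH11-/-, against 1159 to 1263 CPM in those labelled CDH11+/+. The mean centred log2 CPM of this list did overlap, at 0.07 in CDH11-/- replicate 4 and 0.03 in CDH11+/+ replicate 2. The sums of the 4 thick ascending limb markers were 1570 to 2969 CPM in libraries labelled CDH11-/-, against 1644 to 2920 CPM in those labelled CDH11+/+, and those of the 8 distal and collecting duct markers 1516 to 1922 CPM in libraries labelled CDH11-/-, against 1492 to 2601 CPM in those labelled CDH11+/+. None of these lists had a gene past the test, and no listed marker was at 0 in all libraries. The part of these shifts in the values of the TGF-beta genes was not tested.

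**Figure D4:**
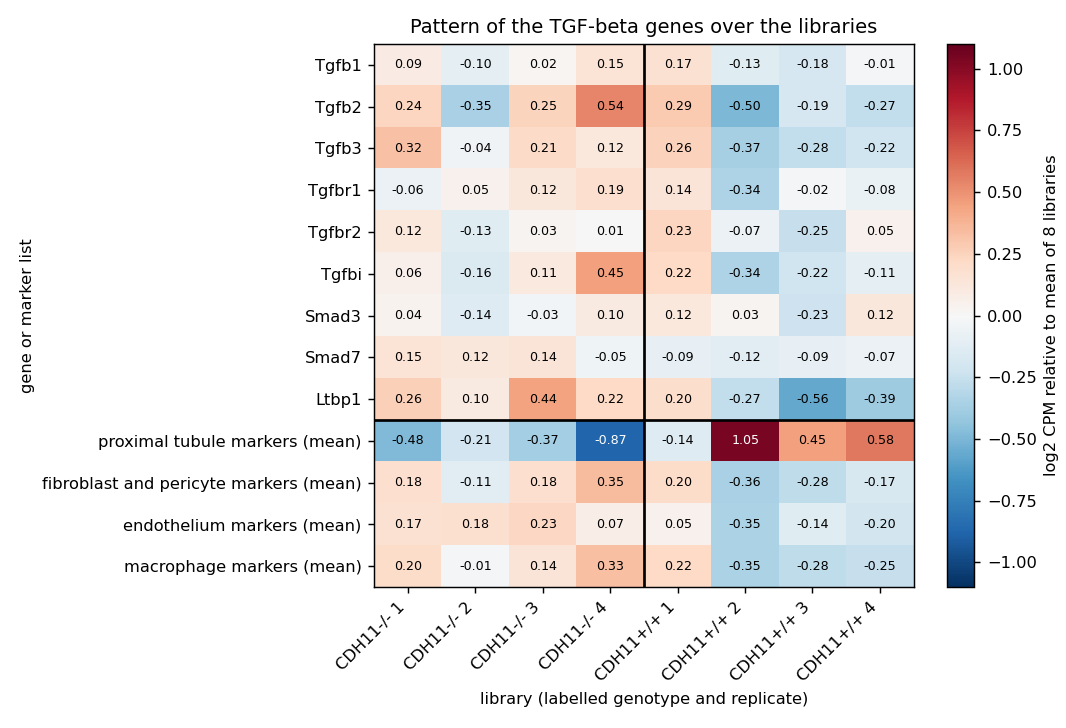
Log2 CPM of the 9 genes (upper rows) and mean log2 CPM of 4 marker lists (lower rows), each relative to its mean over the 8 libraries (colour and printed value), with libraries labelled CDH11-/- left of the line. In CDH11+/+ replicate 1 the Ltbp1 value is 0.20 and the fibroblast marker mean 0.20, where the other libraries of that label are negative in both rows.

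The remaining pathway was read from 4 lists with 101 genes. These lists were chosen with earlier results of these data known, so counts within them do not test the pathway. The first held 24 genes of latency and activation, of which 23 were tested, 0 passed, and 16 had positive values (median log2 fold change 0.17). An unadjusted p under 0.05 was found for 9 of the 23 (8 positive, 1 negative), where 14.1% of all genes had one. In 3 of the 23 the labels did not overlap, where 7.33% of all genes did not. Mmp9, a matrix protease that can free latent TGF-beta, was at 15.3, 8.02, 9.66 and 12.6 CPM in the libraries labelled CDH11-/-, against 7.29, 4.71, 4.59 and 6.63 CPM in those labelled CDH11+/+. Its groups did not overlap, and the log2 fold change was 0.98 ± 0.23 (SE, adjusted p = 0.0819 in edgeR). Fbn1, whose fibrillin microfibrils hold LTBPs, was at 0.44 ± 0.13 (SE, adjusted p = 0.17 in edgeR). The proteoglycans Dcn, a fibroblast marker that binds TGF-beta, and Aspn were at 0.51 ± 0.17 (edgeR adjusted p = 0.238) and 0.74 ± 0.25 (edgeR adjusted p = 0.213), the second from as few as 18 counts in a library. The integrin genes of the list, some of whose products free the ligand, were named with their values known, and none passed. Log2 fold changes were −0.10 for Itgav, 0.17 for Itgb1, 0.01 for Itgb3, 0.14 for Itgb5, −0.16 for Itgb6 and −0.40 for Itgb8.

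The list of other receptors, co-receptors and related ligands had 14 tested genes of 15, of which 1 rose and 0 fell, where 0.719% of all genes passed in either direction. An unadjusted p under 0.05 was found for 7 of the 14 (6 positive, 1 negative), beside the 14.1% of all genes. Gdf15, a distant member of the TGF-beta superfamily that tissues release under stress, was at 95.03, 78.2, 99.1 and 80.5 CPM in the libraries labelled CDH11-/-, against 62.7, 67.8, 53.4 and 63.3 CPM in those labelled CDH11+/+. It rose by 0.51 ± 0.10 on the log2 scale (SE, adjusted p = 0.0356 in edgeR), a call that 10 of 18 alternatives kept (adjusted p 0.00044 to 0.131). The call ended without any 1 of CDH11-/- replicates 1, 3 and 4 or CDH11+/+ replicates 2, 3 and 4, and with both uses of the authors' values. Its log2 fold change ran from 0.45 to 0.57 over the 18. Inhba, which encodes a subunit of activin, a relative of TGF-beta, was at 17.2, 11.3, 16.6 and 21.5 CPM in the libraries labelled CDH11-/-, against 13.9, 5.93, 6.09 and 7.71 CPM in those labelled CDH11+/+, or 0.99 ± 0.30 on the log2 scale (SE, adjusted p = 0.196 in edgeR). Fst, which encodes the activin inhibitor follistatin, did not overlap, at 136.3 to 173.9 CPM in libraries labelled CDH11-/-, against 65.7 to 114.4 CPM in those labelled CDH11+/+, or 0.72 ± 0.16 (SE, adjusted p = 0.0893 in edgeR). Fstl3, a second such inhibitor, did not overlap either, at 0.34 ± 0.09 (SE, adjusted p = 0.132 in edgeR). In 3 of the 14 the labels did not overlap, where 7.33% of all genes did not.

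The SMAD relay and its regulators had the narrowest range of the 4 lists. Of 27 tested genes 0 passed, and 0 had an unadjusted p under 0.05, where 14.1% of all genes did. Log2 fold changes ran from −0.18 to 0.33 (median 0.02). Bambi, a decoy receptor, was at 5.24, 6.33, 5.38 and 7.12 CPM in the libraries labelled CDH11-/-, against 4.98, 4.18, 5.22 and 4.70 CPM in those labelled CDH11+/+, so its groups did not overlap. Its log2 fold change was 0.33 ± 0.16 (SE, adjusted p = 0.382 in edgeR). In 1 of the 27 the labels did not overlap, where 7.33% of all genes did not. The ubiquitin ligase genes Wwp1 (−0.18 ± 0.10, SE, edgeR adjusted p = 0.457) and Rnf111 (0.15 ± 0.08, edgeR adjusted p = 0.457) and the deubiquitinase gene Usp11 (0.13 ± 0.08, edgeR adjusted p = 0.499) overlapped between labels.

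Among 35 genes known to be induced by TGF-beta, 0 passed, and 27 had positive values (median log2 fold change 0.26). An unadjusted p under 0.05 was found for 13 of the 35 (11 positive, 2 negative), beside the 14.1% of all genes. Ccn2, a matricellular protein gene that YAP also drives, was at 367.8, 361.4, 481.4 and 486.0 CPM in the libraries labelled CDH11-/-, against 311.2, 182.8, 200.5 and 203.0 CPM in those labelled CDH11+/+. The groups did not overlap, and CDH11+/+ replicate 1 was far above its group (0.92 ± 0.19, SE, edgeR adjusted p = 0.0744). Nox4, an oxidase that the proximal tubule also makes, had a negative value, at 105.2, 95.7, 110.4 and 98.4 CPM in the libraries labelled CDH11-/-, against 149.4, 222.3, 130.2 and 168.7 CPM in those labelled CDH11+/+. Its log2 fold change was −0.71 ± 0.15 (SE, adjusted p = 0.0744 in edgeR). Gadd45b, a stress response gene, was at 0.48 ± 0.12 (SE, adjusted p = 0.123 in edgeR) and Tgm2, a matrix crosslinker, at −0.18 ± 0.06 (SE, adjusted p = 0.221 in edgeR), both without overlap. In 4 of the 35 the labels did not overlap, where 7.33% of all genes did not. The list shares Col1a1, Col1a2 and Postn with the fibroblast markers.

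CDH11+/+ replicate 1 was the highest of its label in 7 of the 9 TGF-beta genes and 15 of 23 latency genes. The same held in 9 of 14 other receptor genes, 18 of 27 SMAD relay genes and 26 of 35 induced targets. Over all tested genes the share was 32.4%. Leaving out the highest library lowers the mean of its label, so higher fold changes of such genes follow from the omission. The library was picked from these data, so calls without it are not separate support. Without CDH11+/+ replicate 1, a fit that called 6.25% of all genes, 2 of the 9 TGF-beta genes rose, Ltbp1 and Tgfb3, where 3.08% of all genes did. That fit called 9 genes of latency and activation, all higher, 5 of the other receptors, co-receptors and related ligands, all higher, 10 induced targets (9 higher and Nox4 lower) and 0 of the SMAD relay. Of the genes named above, the matrix and latency genes Mmp9 (1.11 on the log2 scale, edgeR adjusted p = 0.0224), Fbn1 (0.59, adjusted p = 0.00583) and Dcn (0.69, adjusted p = 0.0113) passed in it. So did Inhba (1.35 on the log2 scale, edgeR adjusted p = 0.00662), Fst (0.83, adjusted p = 0.033) and Fstl3 (0.42, adjusted p = 0.0186). Among induced targets Ccn2 (1.13 on the log2 scale, edgeR adjusted p = 0.00242) and Nox4 (−0.75, adjusted p = 0.0471) passed. Fst and Nox4 also passed without CDH11+/+ replicate 3, at 0.58 (edgeR adjusted p = 0.0299) and −0.81 (adjusted p = 0.0275). No other single omission called any of these 8 genes.

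**Figure D5:**
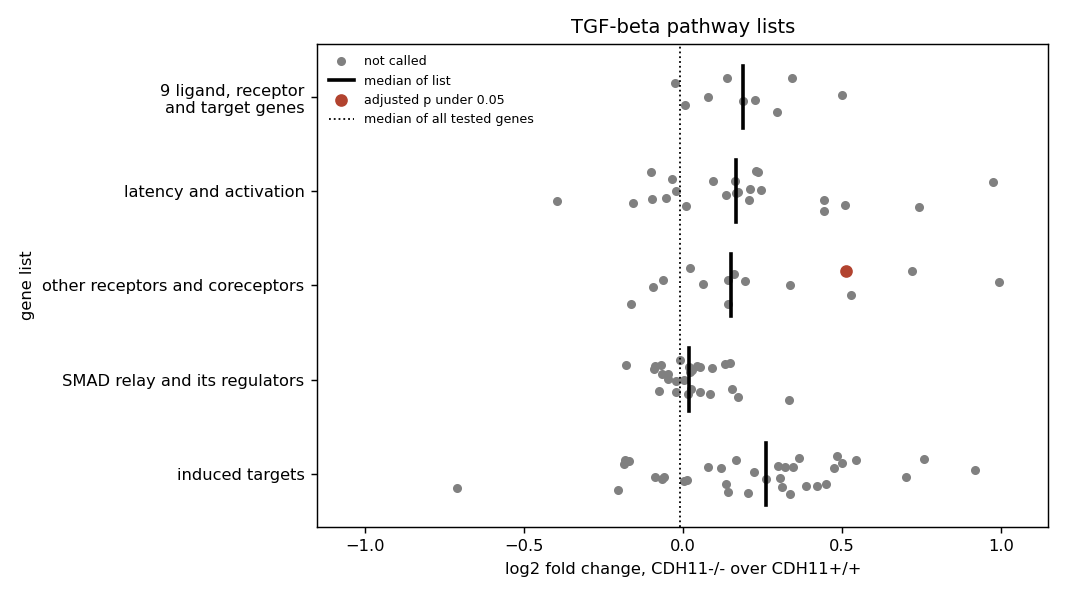
Log2 fold change (x axis, labelled CDH11-/- over CDH11+/+) of every tested gene in the 9-gene set and the 4 pathway lists, with the list median as a bar and the median of all tested genes as a dotted line. Gdf15 is the gene with an adjusted p under 0.05 (red), the SMAD relay centres on 0.02, and the induced targets centre on 0.26.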

How the data were processed

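Kidney RNA of 8 mice was sequenced from directional libraries, per the labels' protocols. The authors deposited whole-number counts per Ensembl gene and a second table of normalized counts, used here as a signal. Build mm10 and the tools DRAGEN and DESeq2 are named, per the submitters' processing notes. Tool versions and the assignment of reads to genes were not given in the sources used here. In the authors' normalized signal the scaling of a library was not the same for every gene (33.1% of factors lay within 1% of their library's median). There were 0 columns of other samples.

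Names, coordinates and merged exon lengths came from GENCODE M21 (GRCm38), and all 42256 identifiers matched. Promoters came from RefSeq on GRCm38.p6. The deposited counts were tested with edgeR 4.0.16 (quasi-likelihood, TMM, filter on low counts, robust moderation, labelled genotype as the only term) over 15852 genes, with Benjamini-Hochberg adjustment at 0.05. Standard errors are the size of the log2 fold change over the root of its F statistic. The test was checked on simulated data. Centred log2 CPM used a prior count of 2. Libraries held 10675309 to 18539479 counts, and intervals do not cover errors of read assignment. The labels do not name litters or batches, and replicates, numbered in accession order, are separate samples, so p-values measure the spread between them.

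The 9 genes and the lists were chosen with earlier results of these data known. From each pathway list the 4 genes of smallest p are named. Genes of like pattern have the smallest root mean square difference, without predicted models and pseudogenes. Alternatives were DESeq2 1.42.0 and its size factors, library size alone, other filters, limma-voom (limma 3.58.1), no robust moderation, limma on the authors' values (log2, pseudocount 1), their factors as offsets, 1 surrogate variable (sva 3.50.0), a threshold of 0.1 and leaving out each library.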

Additional observations from a re-analysis of the deposited data

Results flagged for a closer look

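Of 56 groups of 4 libraries examined, 4 held a library far from the others, where chance flags about 1 in 20. Smad7 in CDH11-/- replicate 4 was at 32.2 CPM, below the 36.2 CPM of the nearest library of its label. In libraries labelled CDH11+/+, Dcn was at 116.0 CPM in replicate 1, beside 79.0 CPM for the nearest, and Ccn2 at 311.2 CPM in replicate 1, beside 203.0 CPM. Aspn was at 2.77 CPM in CDH11+/+ replicate 3, beside 1.66 CPM for the nearest.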

How the results depend on the processing

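Over 18 alternatives each, Tgfb1, Tgfbr1 and Smad7 kept their direction and did not pass. Ltbp1 passed in 3 (limma-voom, 1 surrogate variable, and without CDH11+/+ replicate 1), and Tgfb2 and Tgfbi passed with 1 surrogate variable. The count over all genes was 114, and became 208 with no filter, 520 in DESeq2, 685 in limma-voom, 49 with limma on the authors' values, 50 with their factors as offsets, 1619 with 1 surrogate variable, 285 at a threshold of 0.1, and 26 to 1004 when 1 library was left out (the highest without CDH11+/+ replicate 1, the lowest without CDH11+/+ replicate 4). Among the fits with 1 library left out, only that without CDH11+/+ replicate 3 kept the count within 1.5 times, at 77. The count also stayed close at 117 with DESeq2 size factors and 120 with library size alone. It was 117 with a filter of 1 CPM in 4 libraries and 119 without robust moderation. Shares of all genes called were 0.828% with no filter, 3.04% in DESeq2, 4.32% in limma-voom and 10.2% with 1 surrogate variable. They were 0.309% with limma on the authors' values, 0.315% with their factors as offsets and 0.751% without robust moderation. At the threshold of 0.1 the share was 1.8%, and with 1 library left out it was 0.162% to 6.25%. Of the 9 TGF-beta genes, 1 passed in limma-voom, 3 with 1 surrogate variable, and 0 to 2 with 1 library left out (2 without CDH11+/+ replicate 1, 0 without each other library). In latency and activation (24 listed genes), 1 passed with no filter, 3 in DESeq2, 3 in limma-voom and 10 with 1 surrogate variable. In that list 1 passed at the threshold of 0.1, and 0 to 9 with 1 library left out. Among other receptors and co-receptors (15 listed genes) the count was 3 in DESeq2, 4 in limma-voom and 4 with 1 surrogate variable. There it was 0 with limma on the authors' values and 0 with their factors as offsets. The count of that list was 2 at the threshold of 0.1 and 0 to 5 with 1 library left out. In the SMAD relay (27 listed genes), 2 passed with 1 surrogate variable. Among induced targets (35 listed genes), 3 passed in DESeq2, 6 in limma-voom, 1 without robust moderation and 17 with 1 surrogate variable. Of these targets, 2 passed at the threshold of 0.1, and 0 to 10 with 1 library left out. The causes of these shifts were not tested. Smad3 changed sign with library size alone (0.026), with 1 surrogate variable (0.0017) and among fits with 1 library left out (−0.0976 to 0.021), and Tgfbr2 ran from −0.0671 to 0.104 in such fits. Directions of the 3 ligand shares held in all 10 alternatives. With 4 mice a label, the printed 95% intervals set the sizes of change that these data can tell apart. No paired analysis was possible because the labels give no replicate number shared between genotypes.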
